A study of Mus musculus with 2 samples.

Results

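The 43 imprinted genes described here were looked up by symbol among the 55536 genes of a total RNA-seq data set from adult mouse gastrocnemius, a fast calf muscle. All 43 were matched to a gene identifier. They form 19 imprinted clusters or lone loci, and 35 are protein coding and 8 noncoding. The tissue came from adult male 5xFAD/CAST mice aged 8 to 10 months, labelled as a cross of both strains. 5xFAD mice carry mutant human transgenes under the neuronal Thy1 promoter and serve as a model of brain amyloid deposition, and CAST mice descend from wild Mus musculus castaneus. There was 1 group of 2 libraries, called replicates 1 and 2, and no non-transgenic or single-strain group. Both libraries were made from 300 ng of RNA with ribosomal RNA reduced. The replicates are separate biosamples under a single donor entry. The labels do not say whether they came from separate animals, so the spread between them may be technical. Allele counts were not analysed here: every value below is the total of both parental copies, and none shows which copy was used. Levels are TPM, the deposited abundance scaled by transcript length and by library, and spreads are SD over n = 2 libraries throughout.

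Imprinted genes are expressed from mainly the maternal or mainly the paternal copy, as marked by DNA methylation laid down in the germ line. Most sit in clusters in which a single methylated control region governs several genes. Many clusters hold a long noncoding RNA such as H19, Airn, Kcnq1ot1 or Meg3. Many of them act on fetal growth, and several decline in muscle after birth. H19 and its neighbour Igf2 are known for their roles in myoblasts, and the genes of the Dlk1-Dio3 cluster for muscle mass in sheep and for muscle stem cells in mice. Imprints that hold for 1 transcript or tissue only are common: Gnas and Ube3a are used from both copies in many tissues.

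Some sequences bear on the results that follow. H19 carries the hairpin of a microRNA in an exon, and both mature forms are shown with the seed, bases 2 to 8, in capitals (RefSeq, mm10):
miR-675-5p, chr7:142577112-142577133, minus strand: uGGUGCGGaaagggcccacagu
miR-675-3p, chr7:142577078-142577099, minus strand: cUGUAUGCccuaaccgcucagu
Grb10 transcripts started mostly at 2 sites, and the 250 bases before each RefSeq start are shown 5′ to 3′ with CpG dinucleotides in capitals, since both windows differ in CpG content:
Grb10 upstream start, chr11:12037421-12037670, minus strand: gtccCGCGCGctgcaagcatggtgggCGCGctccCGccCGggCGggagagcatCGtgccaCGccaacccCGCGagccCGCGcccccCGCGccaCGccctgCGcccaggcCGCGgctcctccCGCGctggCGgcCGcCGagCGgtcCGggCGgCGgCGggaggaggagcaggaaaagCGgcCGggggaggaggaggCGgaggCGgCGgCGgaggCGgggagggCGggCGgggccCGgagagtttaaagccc
Grb10 downstream start, chr11:12027972-12028221, minus strand: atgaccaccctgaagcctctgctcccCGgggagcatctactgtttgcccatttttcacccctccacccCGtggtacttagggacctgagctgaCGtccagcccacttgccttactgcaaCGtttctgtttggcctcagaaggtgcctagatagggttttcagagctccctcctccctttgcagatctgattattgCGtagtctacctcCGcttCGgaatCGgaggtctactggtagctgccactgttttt
Peg3 and Usp29 start back to back, and the 163 bases between their RefSeq starts are shown on the plus strand with CpG in capitals:
Peg3 to Usp29, chr7:6730420-6730582, plus strand: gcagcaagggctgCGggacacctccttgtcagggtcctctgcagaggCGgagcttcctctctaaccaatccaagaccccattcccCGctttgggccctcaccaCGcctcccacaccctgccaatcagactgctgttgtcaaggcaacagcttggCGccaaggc

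Expected counts of annotated genes summed to 35163970 for replicate 1 and to 35412240 for replicate 2. The tissue label was borne out by its markers: all 6 muscle fibre markers were above 1 TPM, Acta1, Tnnt3 and Ckm highest, and summed to 85289 and 82174 TPM. Markers of other cell types were present at far lower summed levels: 241 and 246 TPM for 5 fibroblast genes, 187 and 125 TPM for 5 adipocyte genes, and 54.8 and 39.8 TPM for 5 endothelial genes. Of 5 satellite cell markers, 2 reached 1 TPM in both libraries. The 5 neuronal markers summed to 0.28 and 0.40 TPM, and each had 10 counts or fewer in either library. In bulk tissue, fewer cells of a type and less RNA per cell cannot be told apart.

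Of the 43 imprinted genes, 23 reached 1 TPM in both libraries, 18 of 35 coding and 5 of 8 noncoding. Among all annotated genes 19.7% did so, among all protein-coding genes 45.8% and among all long noncoding genes 3.04%. The coding members thus passed about as often as coding genes at large, and the noncoding members more often than long noncoding genes at large, though on 8 genes only. At the other end, 13 of the 43 had under 10 counts in both libraries. Together the 43 genes made up 0.141% and 0.136% of all counts, and summed to 1010 and 926 TPM. Their median was 1.25 TPM in replicate 1 and 1.68 TPM in replicate 2. Among the 23 members at 1 TPM the median was 7.79 ± 0.156 TPM, beside 7.86 ± 0.534 TPM over the 10964 genes that met the same condition.

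**Figure D1:**
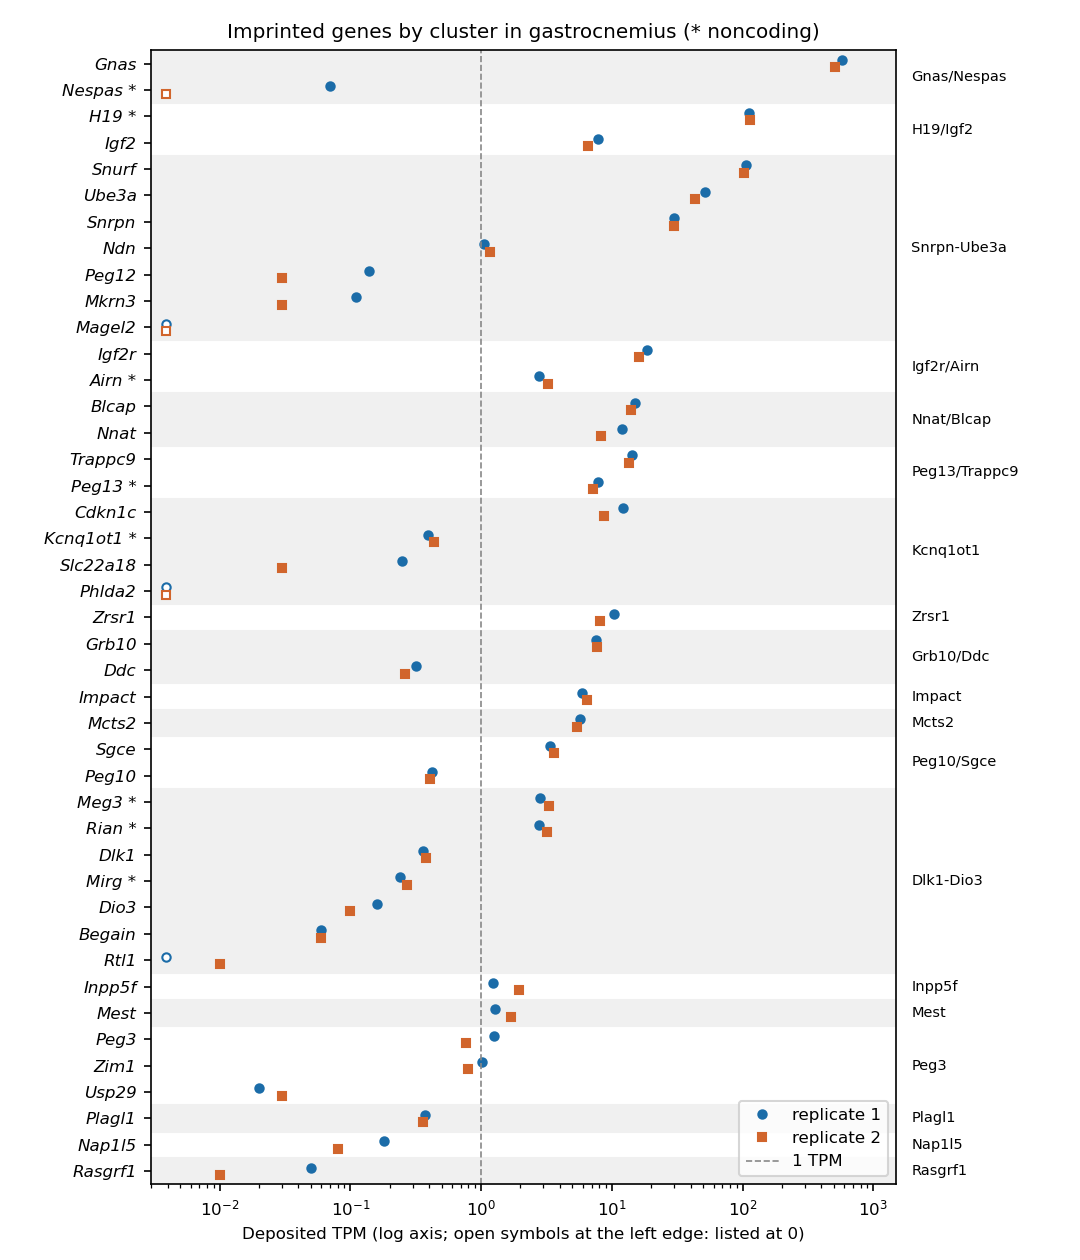
Deposited TPM (log axis) of the 43 imprinted genes in replicate 1 (circles) and replicate 2 (squares), grouped by cluster and ordered by level, with noncoding genes starred and genes listed at 0 drawn as open symbols at the left edge. Gnas at 573 and 513 TPM, H19 at 112 and 114 TPM and Snurf at 106 and 102 TPM lie far to the right, and most clusters mix members above 1 TPM with members far below it.

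A few genes carried most of the total. The Gnas/Nespas cluster held 56.1 ± 0.954% of the summed TPM, the Snrpn-Ube3a cluster 18.9 ± 0.264% and the H19/Igf2 pair 12.4 ± 0.814%. The 7 genes of the Dlk1-Dio3 cluster held 0.711 ± 0.110%. The 8 noncoding genes held 13.4 ± 1.04%, and H19 made up 86.9% and 86.6% of that.

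Gnas encodes the alpha subunit of the stimulatory G protein, which couples hormone receptors to adenylyl cyclase. It was the most abundant member, at 573 TPM in replicate 1 and 513 TPM in replicate 2 (543 ± 42.6), and ranked 94th among all genes by mean TPM. The gene (ENSMUSG00000027523.19) spans chromosome 2 from 174284320 to 174346744 on the plus strand in mm10. Its promoters lie in a row. The most upstream gives the maternally expressed neurosecretory protein Nesp55, the next the paternally expressed long form XLαs, then comes the untranslated exon 1A, and the most downstream gives the widely expressed Gsα. In the RSEM transcript tables, transcripts starting at 174330006 to 174330287, those of Gsα, took 99.4% of the gene's TPM in replicate 1 and 99.1% in replicate 2. Those starting at 174284320, where Nesp55 begins, were at 0 in both libraries, and those at 174297859 reached 0.004% in replicate 2. In the RSEM tables the muscle signal of this locus was therefore almost all that of the promoter used in most tissues. The kallisto-layout tables, the other deposited quantification of the same libraries, gave 80.8% and 78.2% to the Gsα starts and 19.2% and 21.8% to starts from 174327570 to 174328023, the region of exon 1A. In the RSEM tables that region took 0.406% and 0.337%. The share of the exon 1A region thus depended on the quantification by far more than on the library. The starts at 174284320 and 174297859, upstream of that region, took 0.005% or less in either quantification. Nespas, the antisense RNA that overlaps the Nesp55 start, had 2 counts in replicate 1 and 0 in replicate 2. Gm20721, annotated on the opposite strand inside Gnas, had 35 and 28 counts, against 23912 and 22685 for Gnas.

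H19, a long noncoding RNA expressed from the maternal copy and abundant in fetal muscle, was the next most abundant member. It reached 112 TPM in replicate 1 and 114 TPM in replicate 2, on 6006 and 6680 counts. Among all long noncoding genes it ranked 8th. H19 (ENSMUSG00000000031.16) lies on chromosome 7 from 142575529 to 142578143, minus strand. Transcript H19-202 of 2286 bases held 94.6% of the gene's TPM in the RSEM tables and 87.8% in the kallisto-layout tables. The miR-675 hairpin, whose mature forms are printed above, was listed at 0 in both libraries, but so short a gene has an effective length of 0 in these tables and can receive no counts.

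Igf2 encodes the fetal growth factor IGF2, is expressed from the paternal copy and shares enhancers with H19. It was at 7.90 TPM in replicate 1 and 6.54 TPM in replicate 2. Igf2 (ENSMUSG00000048583.16) spans chromosome 7 from 142650766 to 142666816, minus strand. H19 exceeded it 14.1 fold in replicate 1 and 17.4 fold in replicate 2 (15.7 ± 2.30), and the levels of both genes did not come near each other in either library. Igf2 starts were spread over 7 sites. The site at 142657466 to 142657496 took 30.9 ± 14.2% of the RSEM TPM and the short processed transcript at 142653030 took 27.2 ± 2.21%. The most upstream site, at 142666816, took 11.6 ± 15.8%, so its share was not resolved between the libraries. Igf2 also shares 97.0% of the 31-base stretches of transcript ENSMUST00000000033.11 with Gm49394, an overlapping annotated gene on the same strand, which received 0 counts in the gene tables. The level of Igf2 rests on that division.

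Genes next to H19 varied over orders of magnitude. Tnnt3, the fast troponin T, starts 79.3 kb downstream of the H19 start and stood at 17223 and 16907 TPM. Nctc1, a muscle noncoding RNA that starts 19.5 kb downstream, in the stretch that holds the mesodermal enhancers of the cluster, was at 72.2 and 69.5 TPM. Gm33148, between H19 and Igf2, had 8 and 11 counts. Mrpl23, a mitochondrial ribosomal protein gene, was at 1.82 and 0.43 TPM on only 32.9 and 21.1 counts. Prr33, annotated as a noncoding gene and starting 71.4 kb downstream, was at 101 and 82.2 TPM. H19 lay above Prr33 and Nctc1 in each library. Lsp1, which starts 117 kb downstream, was at 17.4 and 22.1 TPM. Igf2 lay below H19, Prr33, Nctc1 and Lsp1, and above Mrpl23 and Gm33148.

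**Figure D2:**
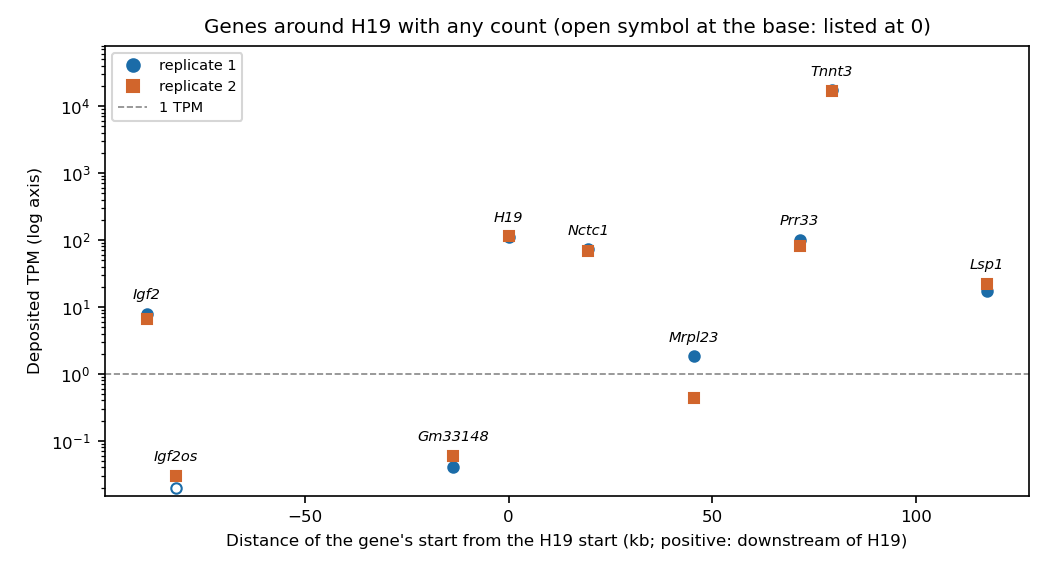
Deposited TPM (log axis) of genes around H19 that had any count, against the distance of each gene's start from the H19 start in kb (positive values lie downstream of H19), in replicate 1 (circles) and replicate 2 (squares). Tnnt3 stands at 17223 and 16907 TPM, H19 at 112 and 114 TPM, Igf2 at 7.90 and 6.54 TPM, and Gm33148 between them at 0.04 and 0.06 TPM.

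Igf2r encodes the receptor that takes up IGF2 for breakdown and sorts lysosomal enzymes, and is used from the maternal copy in most mouse tissues. It was at 18.4 TPM in replicate 1 and 16.0 TPM in replicate 2, on 4136 and 3823 counts, and exceeded its ligand Igf2 by 2.39 ± 0.0843 fold. Igf2r (ENSMUSG00000023830.14) spans chromosome 17 from 12682406 to 12769664, minus strand. Airn, the antisense RNA that silences the paternal Igf2r copy, overlaps its promoter on chromosome 17. Airn was at 2.78 and 3.23 TPM on only 65 and 71 counts. Igf2r exceeded Airn 6.62 fold in replicate 1 and 4.96 fold in replicate 2. Airn (ENSMUSG00000078247.4) spans 119 kb, and its annotated transcripts are spliced, so reads from the introns of unspliced Airn RNA are not counted there.

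Grb10 encodes an adaptor that binds the insulin and IGF1 receptors and restrains their signalling. It was at 7.54 TPM in replicate 1 and 7.68 TPM in replicate 2. Grb10 (ENSMUSG00000020176.17) spans chromosome 11 from 11930508 to 12038683, minus strand. The start at 12037401 on chromosome 11 took 87.8% of its RSEM TPM in replicate 1 and 82.6% in replicate 2, and the start at 12027971 took 11.0% and 13.7%. The kallisto-layout tables gave 59.6% and 50.4% to the former and 9.07% and 20.9% to the latter, with the rest on starts farther downstream. In both quantifications the upstream start led. The 250 bases before it, printed above, hold 40 CpG, and 98.7% of such windows in the promoter table hold fewer. The 250 bases before the downstream start hold 8 CpG, with 57.0% of windows holding fewer. Ddc, the neighbouring gene for aromatic amino acid decarboxylase, had 6 and 8 counts and is imprinted mainly in heart.

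**Figure D3:**
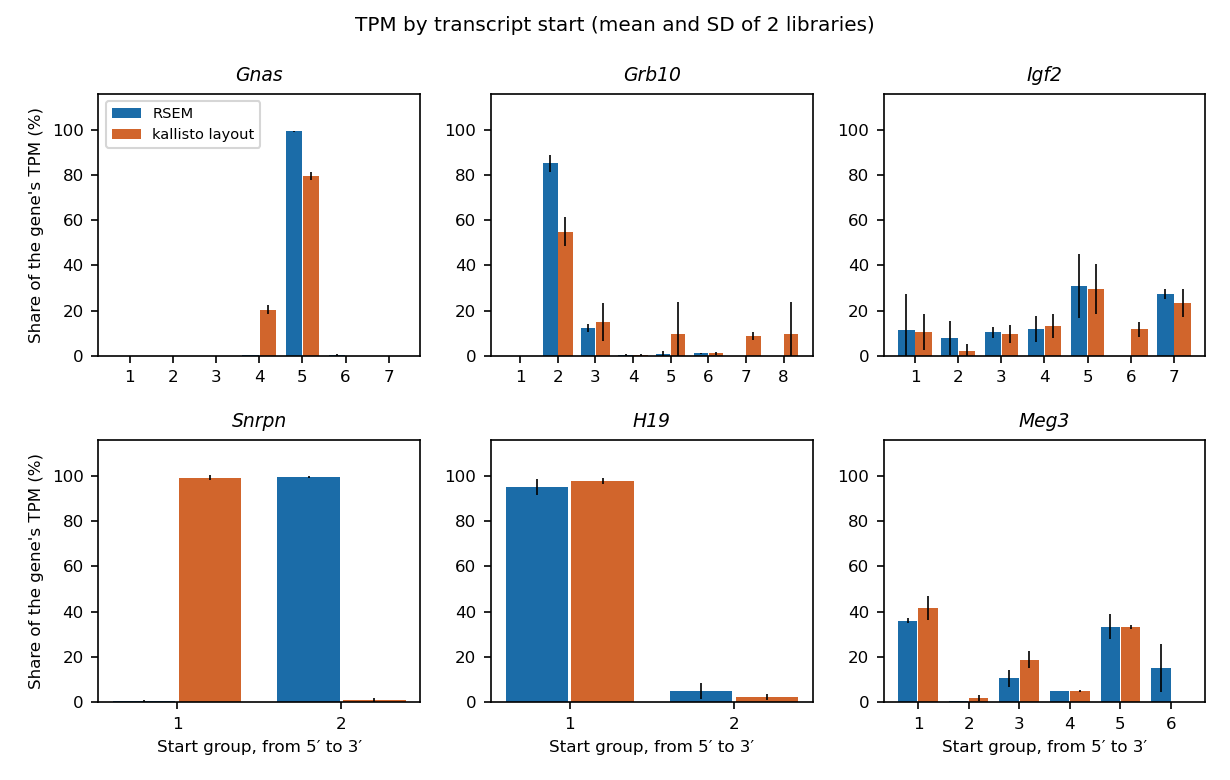
Share of the TPM of 6 imprinted genes by transcript start, numbered from 5′ to 3′, in the RSEM (blue) and kallisto-layout (orange) transcript tables. Bars are the mean and whiskers the SD of 2 libraries. Gnas, Grb10 and H19 are led by the same start in both quantifications, Igf2 and Meg3 are spread, and Snrpn changes from 1 start to the other.

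The IGF and thyroid hormone list gave the surroundings of these genes. Of its 20 genes, 14 reached 1 TPM in both libraries, led by Igfbp5 at 101 and 95.3 TPM, Thra at 35.4 and 30.0 TPM and Igfbp7 at 30.8 and 28.8 TPM. Among all protein-coding genes 45.8% reached 1 TPM in both libraries. Igfbp5 and Igfbp7 encode IGF binding proteins and Thra a thyroid hormone receptor. Named for their role rather than their level, Igf1r was at 3.34 and 3.54 TPM and Insr, the insulin receptor, at 26.9 and 24.4 TPM. None of the 14 genes with 100 counts or more on average differed 1.5-fold between the libraries. Only 1.23% of all 9742 genes at that depth did.

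In the Snrpn-Ube3a cluster on chromosome 7, 4 of 7 genes reached 1 TPM. Ube3a encodes the E3 ubiquitin ligase lost in Angelman syndrome. It is imprinted in neurons and used from both copies elsewhere. Ube3a was at 51.6 TPM in replicate 1 and 43.2 TPM in replicate 2, on 5335 and 4923 counts. Ube3a (ENSMUSG00000025326.12) spans chromosome 7 from 59228750 to 59311536, plus strand. Snhg14, the host RNA that runs antisense to Ube3a, was at 1.39 and 1.41 TPM. The short Ube3a transcripts were placed differently by each quantification: Ube3a-212, of 442 bases, held 35.6% of the gene's TPM in the kallisto-layout tables and 0 in the RSEM tables.

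Snrpn encodes SmN, a core protein of spliceosomal particles, and Snurf a small protein read from the same paternal transcript. Snrpn was at 30.1 TPM in replicate 1 and 30.0 TPM in replicate 2, on 1412 and 1491 counts. Snrpn (ENSMUSG00000102252.5) spans chromosome 7 from 59982495 to 60140219, minus strand. Snurf was listed at 106 and 102 TPM on only 313 and 321 counts. Its annotated transcript is 216 bases long, so that 3 counts would be worth 1.01 TPM in replicate 1, against 0.064 TPM for Snrpn. That sequence lies whole inside Snrpn-201, at bases 63 to 278 of 1932, and all of its 31-base stretches are shared with other genes. The kallisto-layout tables gave Snurf 0 counts in both libraries. Snurf and Snrpn reads therefore cannot be told apart by sequence, and the Snurf level is uncertain. The transcript of Snrpn was uncertain as well. The RSEM tables placed 99.7% of its TPM on Snrpn-201, which starts at 60005111, and the kallisto-layout tables placed 99.3% on Snrpn-202, which starts at 60140219.

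The remaining genes of the cluster were near the limit. Ndn, which encodes necdin, a growth-restraining MAGE protein, was at 1.06 and 1.18 TPM on 97 and 115 counts. Its neighbours are made of a single coding exon each and are used from the paternal copy. Mkrn3 had 7 and 2 counts and Peg12 had 9 and 2 counts. Magel2 had none in either library, and the 3 counts that a count of 0 still allows would be worth 0.0259 TPM in replicate 1 and 0.0244 TPM in replicate 2. Ndn was thus detected in both libraries, and its 3 neighbours reached 0.14 TPM at most.

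The Dlk1-Dio3 cluster on chromosome 12 pairs maternal noncoding RNAs with paternal coding genes. Meg3, a maternal noncoding RNA, was at 2.81 TPM in replicate 1 and 3.31 TPM in replicate 2, on 117 and 144 counts. Meg3 (ENSMUSG00000021268.17) spans chromosome 12 from 109541001 to 109571726, plus strand. Rian, a host of small nucleolar RNAs, was at 2.76 and 3.17 TPM on 93 and 122 counts. The Meg3 to Rian ratio was 1.02 and 1.04 in the RSEM tables and 0.777 and 0.798 in the kallisto-layout tables, so which of them was higher depended on the quantification. Both had more counts in replicate 2. Mirg, the microRNA host farther along, had 9 and 10 counts. Meg3 starts were spread: those at 109541001 to 109541007 took 36.0 ± 1.22% of RSEM TPM, and those at 109546391 to 109546445 took 33.3 ± 5.54%. The leading Meg3 transcript of the kallisto-layout tables, ENSMUST00000129245.7, shares 48.2% of its 31-base stretches with other genes, all 707 of them with Gm27000, and that of the RSEM tables, ENSMUST00000143847.7, shares none.

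The coding genes of the cluster were low in every case. Dlk1, which encodes a membrane protein related to Notch ligands and marks immature cells, had 13 and 14 counts and was at 0.36 and 0.38 TPM. Meg3 exceeded it 7.81 and 8.71 fold. Dio3, the deiodinase that inactivates thyroid hormone, had 8 and 5 counts. Begain had 4 and 3 counts. Rtl1, a retrotransposon-derived gene needed in placenta and fetal muscle, had 0 and 1 counts. The 2 members of this cluster above 1 TPM were thus both noncoding. Of 69 microRNA genes annotated in the cluster, 61 had an effective length of 0 and could receive no counts. The other 8 also had none.

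In the Kcnq1ot1 cluster on chromosome 7, Cdkn1c encodes the cell cycle inhibitor p57, a maternally expressed brake on growth. It was at 12.3 TPM in replicate 1 and 8.72 TPM in replicate 2, on 439 and 328 counts, the lowest log2 ratio between the libraries among members with a mean of 100 counts (-0.37, 95% counting interval -0.58 to -0.16). Cdkn1c (ENSMUSG00000037664.13) spans chromosome 7 from 143458339 to 143461050, minus strand. Kcnq1ot1 (ENSMUSG00000101609.2), the paternal antisense RNA that silences the cluster, had 939 and 1118 counts. Spread over its 93.1 kb that came to 0.39 and 0.44 TPM. Its many counts and low TPM both follow from its length, and Cdkn1c exceeded it 31.5 and 19.8 fold per length. Kcnq1, the potassium channel gene that it overlaps, had 7 and 11 counts. Slc22a18, a transporter gene, had 8 and 1 counts, and Phlda2, a placental growth regulator, had none, which allows up to 0.294 and 0.277 TPM.

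Peg3 encodes a zinc finger protein that is known from muscle stem cells and fetal growth. It was at 1.25 TPM in replicate 1 and 0.76 TPM in replicate 2, on 213 and 164 counts. Peg3 (ENSMUSG00000002265.16) spans chromosome 7 from 6703892 to 6730431, minus strand. Zim1, a maternally expressed zinc finger gene nearby, was at 1.01 and 0.79 TPM. Usp29, which starts across the short stretch printed above and is read away from Peg3, had 1 and 2 counts. Peg3 therefore exceeded Usp29 in both libraries although 163 bases separate their RefSeq starts. The stretch holds 5 CpG.

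Sgce and Peg10 also start back to back, on chromosome 6. Sgce encodes epsilon-sarcoglycan, a membrane protein of the dystrophin-associated complex, and was at 3.35 TPM in replicate 1 and 3.63 TPM in replicate 2. Peg10, a retrotransposon-derived gene essential in placenta, was at 0.42 and 0.41 TPM on 70 and 72 counts. Sgce exceeded it 7.98 fold in replicate 1 and 8.85 fold in replicate 2. Mest, a mesoderm gene of the hydrolase family on the same chromosome, was at 1.28 and 1.68 TPM on 73 and 75 counts. Its transcripts starting at 30738050 to 30738055 took 86.9 ± 18.5% of RSEM TPM.

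Several members are copies or transcripts that sit inside the intron of a host gene. Nnat, which encodes the small membrane protein neuronatin, lies inside Blcap. Nnat was at 11.9 TPM in replicate 1 and 8.26 TPM in replicate 2, and Blcap, a gene known from bladder cancer, at 15.1 and 14.0 TPM. Blcap was higher in both libraries. Peg13, a noncoding RNA inside the trafficking gene Trappc9 on chromosome 15, was at 7.79 and 7.21 TPM, and Trappc9 at 14.4 and 13.5 TPM. Their ratio (Trappc9 to Peg13) was 1.86 ± 0.0225. Both lie on the same strand, so unspliced Trappc9 RNA over Peg13 and Peg13 itself cannot be told apart. Mcts2, an intronless copy of a translation factor gene inside H13, was at 5.68 and 5.40 TPM beside 13.1 and 11.8 TPM for H13. Mcts2 and H13 also share a strand, so the same limit holds for unspliced H13 RNA over Mcts2. Nap1l5, a nucleosome assembly gene inside Herc3, had 8 and 4 counts beside 26.7 and 22.9 TPM for Herc3. Hosts were above their guests in these 4 pairs in both libraries.

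Zrsr1, a splicing factor copy inside Commd1 on chromosome 11, stood out by quantification. The RSEM gene tables gave it 10.4 TPM in replicate 1 and 8.08 TPM in replicate 2, on 642 and 613 counts. Zrsr1 (ENSMUSG00000044068.7) spans chromosome 11 from 22972005 to 22976496, plus strand. The kallisto-layout tables gave it 60.0 and 60.8 TPM, on 8209 and 8449 estimated counts. Commd1 was similar in both, at 49.6 and 38.2 TPM against 38.8 and 32.7 TPM. Whether Zrsr1 lay below or above its host thus depended on the table used, and the cause was not tested.

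The other members are lone loci. Impact, a gene for a regulator of translation under stress, was at 5.96 and 6.51 TPM. Inpp5f, a phosphoinositide phosphatase gene, was at 1.23 and 1.96 TPM on 121 and 133 counts. The library difference in TPM came with a mean transcript length put at 3956 bases in replicate 1 and 2600 bases in replicate 2. Plagl1, a zinc finger gene that regulates other imprinted genes in the embryo, was at 0.37 and 0.36 TPM on 38 and 27 counts. Rasgrf1, a guanine nucleotide exchange factor known from brain, had 5 and 1 counts.

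Neighbours in the order of levels often overlapped. Blcap and Trappc9 overlapped between the libraries, as did Cdkn1c, Nnat and Zrsr1, and again Peg13, Grb10 and Igf2. Meg3, Airn and Rian could not be ordered among themselves. Gnas, H19, Snurf, Ube3a, Snrpn and Igf2r formed an order without overlap on the RSEM scale, in which the place of Snurf is uncertain.

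Members were also set apart by the copy that is known to be expressed, from textbook knowledge rather than from these data. Of 26 genes known for paternal expression, 12 reached 1 TPM in both libraries, and of 9 known for maternal expression, 5 did. Of the 8 whose imprint depends on tissue or transcript, 6 did. The last group held 64.9 ± 1.10% of summed TPM, mostly Gnas, the paternal group 19.8 ± 0.411%, largely Snurf, and the maternal group 15.3 ± 0.692%, mostly H19. Without H19, the maternal group held 3.61 ± 0.175%, and without Snurf, the paternal group held 9.10 ± 0.0137%.

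The libraries were compared with each other on counts, since they form 1 group. Log2 ratios of replicate 2 to replicate 1 used expected counts with TMM scaling, and genes averaging 100 counts or more were called different at 1.5-fold. Among 9742 such genes 1.23% were called, and of 23 members 0 were. A posterior SD over 5% of the count was used to mark reads heavily divided among genes. It marked 0 of these members and 2.89% of all such genes. Lesser division was not marked: the posterior SD of Snurf was 2.81% of its count in replicate 1 and 2.70% in replicate 2. With 1 library on each side no p-value can be drawn. In simulated libraries, 27 of 47 genes changed 1.5-fold and 44 of 44 changed 2-fold were called, with 2 of 9609 unchanged genes. Those libraries held counting error only, so these rates do not carry over to the real pair.

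The members' ratios ran from -0.37 for Cdkn1c to 0.44 for Rian. Of the 23, 15 were above 0 and 8 below, with 50.7% of all genes above 0. That split was 11 and 12 under library totals, 19 and 4 under spike-in totals and 9 and 14 in TPM. The median was 0.04 and that of all genes 0.00. The counting interval left out equality for 9 members: H19 (0.21), Rian (0.44), Kcnq1ot1 (0.30), Grb10 (0.14) and Snrpn (0.13) above, and Cdkn1c (-0.37), Nnat (-0.31), Peg3 (-0.32) and Ube3a (-0.06) below. Of all genes 24.3% had such an interval. The interval covers counting error only and bears on these libraries, not on conditions. It also moves with the scaling: only H19 and Kcnq1ot1 above and Cdkn1c below kept such an interval under TMM, library totals and spike-in totals alike. Under library totals Rian, Grb10 and Snrpn no longer had one, and under spike-in totals Nnat, Peg3 and Ube3a did not. Cdkn1c, Kcnq1ot1, Meg3, Ndn, Nnat, Peg3 and Rian lay outside the range from the 5th to the 95th percentile of all genes (-0.30 to 0.27).

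All 5 noncoding members with a mean of 100 counts had ratios above 0 under TMM scaling: Rian 0.44, Meg3 0.35, Kcnq1ot1 0.30, H19 0.21 and Peg13 0.03. Under scaling by library totals, and in TPM, Peg13 came below 0 and the other 4 stayed above. Of all 130 long noncoding genes at this depth 63.1% were above 0, with a median of 0.08. Of the 18 coding members, 10 were above 0, with a median of 0.03.

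**Figure D4:**
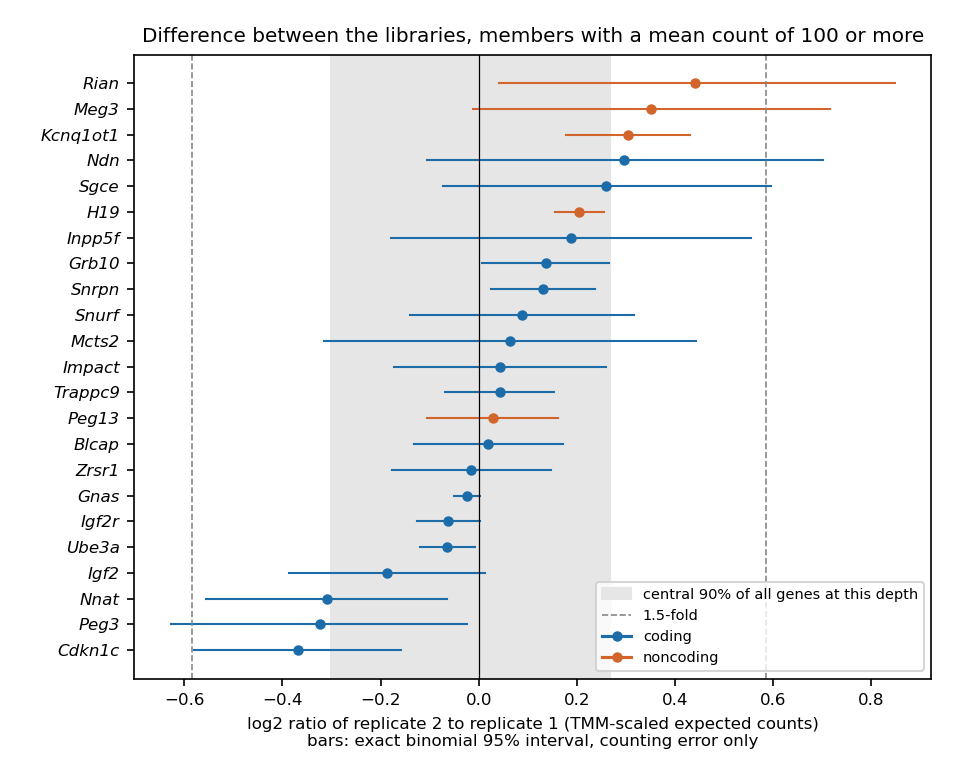
Log2 ratio of replicate 2 to replicate 1 (x axis) for the 23 imprinted genes that averaged 100 counts or more, noncoding genes in orange and coding genes in blue, with exact binomial 95% intervals that cover counting error only. The grey band runs from -0.30 to 0.27, between which the central 90% of all genes lie, and no point reaches the dashed 1.5-fold lines.

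Cell type markers also differed between the libraries. All 5 endothelial markers were lower in replicate 2 (median log2 ratio -0.42), 2 of them 1.5-fold, and all 5 adipocyte markers were lower (median -0.38), 1 of them 1.5-fold. Both lists were lower throughout under library totals, spike-in totals and TPM as well. The 3 Schwann cell markers with a mean of 100 counts were also lower (median -0.20), as were the 2 such satellite cell markers (median -0.16), of which 1 came above 0 under spike-in totals. Of 5 fibroblast markers 4 were higher under TMM (median 0.19) and 3 in TPM. All 6 fibre markers were higher under TMM (median 0.10), 4 of 6 under library totals and 0 of 6 in TPM. None of these markers was at 0. Cdkn1c, Nnat and Peg3 were lower in the same library as the endothelial, adipocyte, Schwann cell and satellite cell markers, and the part of those cells in their levels was not tested.

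Both deposited quantifications were compared for the 25 members at 1 TPM in the mean of either. Of these, 2 differed at least 2-fold, Snurf and Zrsr1, beside 6.69% of all 11885 genes. The median log2 ratio of the kallisto-layout TPM to the RSEM TPM was 0.04 over the members and -0.01 over all genes. Levels of the other 23 members stayed within 2-fold from table to table. Of 20 members at 1 TPM with more than 1 transcript, the leading transcript was the same in 14 and differed for Blcap, Meg3, Rian, Snrpn, Ube3a and Zrsr1.

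**Figure D5:**
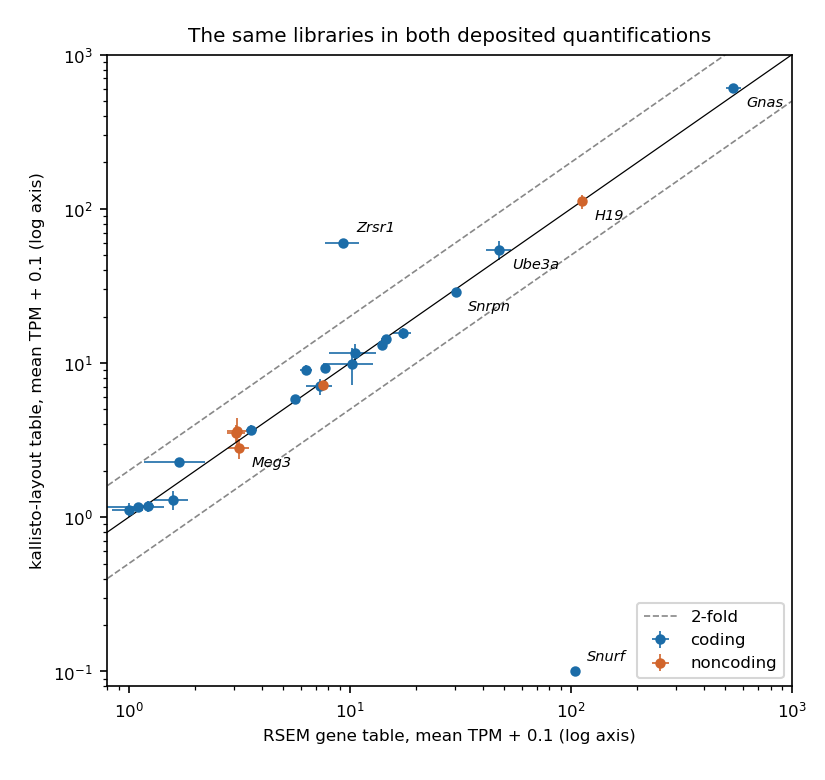
Mean TPM plus 0.1 of imprinted genes in the RSEM gene tables (x axis) and the kallisto-layout tables (y axis), both on log axes, with SD over 2 libraries, for members at 1 TPM in either. Zrsr1 lies above and Snurf below the dashed 2-fold lines, and the other 23 genes lie between them.

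Of a list of 45 further imprinted genes, 21 reached 1 TPM in both libraries, about the share of protein-coding genes at large (45.8%). Among all genes 19.7% did so. The list was led by Nap1l4 at 81.8 TPM in each library, Slc38a4 at 60.5 and 43.5 TPM and Cobl at 52.0 and 41.7 TPM. Of 22 genes that set or keep imprints, 14 reached 1 TPM in both libraries, beside the same 45.8% of protein-coding genes. The highest were Trim28, a corepressor that holds methylation at imprints, at 26.7 and 24.8 TPM, the DNA methyltransferase gene Dnmt3a at 25.0 and 24.0 TPM, and Ctcf, the insulator factor of the H19/Igf2 cluster, at 14.8 and 15.1 TPM. None of the 22 further imprinted genes and 15 regulators that averaged 100 counts or more differed 1.5-fold between the libraries. Among all 9742 genes at that depth only 1.23% did.

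Promoter windows, 250 bases before to 50 bases after each RefSeq start, were available for 34 members at 52 starts. H19, Cdkn1c, Peg13, Peg10, Sgce, Impact, Nespas, Rtl1 and Trappc9 had no entry. The median number of CpG in a window was 15, beside 7 over all 32851 windows. The hexamer TGCCGC, which the imprint-keeping factor ZFP57 binds when methylated, was searched on both strands. Snrpn and Snurf share a window, which leaves 51 distinct ones. The hexamer occurred in 11 of 51 (21.6%) and in 11.6% of all windows. Members at a mean of 1 TPM had it in 8 of 30 distinct windows and the lower members in 3 of 21. Windows of 1 gene overlap in places, and the motif holds a CpG itself, so these are descriptions only.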

How the data were processed

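Total RNA was sequenced from gastrocnemius in 2 libraries of 1 group with a directional kit, per the labels' protocols. The authors deposited gene and transcript tables with expected counts and TPM, and kallisto-layout transcript tables with estimated counts and TPM, on mm10 with GENCODE M21, per the file headers. Aligner and program versions were not given in the sources used here. Effective lengths were transcript length less 100. Expected counts were rounded for ratios. TMM factors (edgeR 4.0.16) were fitted on genes averaging 10 counts or more, with a prior of 0.5, and intervals are exact binomial 95% intervals. A count of 0 was taken to allow 3 counts. TPM ratios between tables used a pseudocount of 0.1. Rows for spike-ins and other non-gene sequences, 0.527% and 0.474% of expected counts, were left out. All members are named, with the 3 genes of highest TPM of other lists. Members and lists were chosen with earlier results of these data known. Steps were tested on simulated data. Alternatives are given in the closing section. Python 3.11.15, R 4.3.3 and DESeq2 1.42.0 were used.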

Additional observations from a re-analysis of the deposited data

How the results depend on the processing

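The count of members at 1 TPM stayed within 1.5 times its value under 8 alternatives. The median TPM of members was 1.47 and moved to 1.10 in the kallisto-layout tables, 3.22 when TPM was rescaled over nuclear coding and long noncoding genes, and 4.52 over members at 0.1 TPM in both libraries. Leaving out each library in turn gave 1.25 to 1.68 TPM for it, 23 to 25 members at 1 TPM, 12.7 to 14.2% for the noncoding share, 0.633 to 0.788% for the Dlk1-Dio3 share and 2 members in each case between quantifications. After the data were seen, shares were also taken without Gnas, which put the noncoding share at 30.6% and the Dlk1-Dio3 share at 1.62%, and without Snurf, which put the noncoding share at 15.1%.

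Members called at 1.5-fold between the libraries numbered 2 in deposited TPM (Inpp5f and Peg3, whose estimated lengths differed between the libraries), beside 4.01% of all genes, and 8 of 41 with no count minimum, beside 33.0%. The median log2 ratio of members, 0.04, became -0.018 under library totals and -0.072 in deposited TPM, where the median of all genes was -0.06 and -0.13. Library totals move every gene alike, so the distance from all genes is the same there. Scaling moved the number of the 23 members above 0 between 9 and 19. A leading transcript of at least 50% was held by 12 members in the RSEM tables and 11 in the kallisto-layout tables. Of these, 10 were the same genes, and 7 had the same transcript. No paired analysis was possible because there is a single group of 2 libraries. Depth limits the 13 members with under 10 counts.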
